A study of Mus musculus with 32 samples.

Results

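Alk5 is the older name of the protein encoded by Tgfbr1, the type I receptor through which TGF-beta ligands signal. The loss of this receptor was examined in the proximal end of the mouse mandible at embryonic day 13.5. All arrays labelled as proximal mandible were taken, which gave 4 Alk5 knockout (KO) arrays and 4 control arrays of the 32 Affymetrix expression arrays of the study. The KO embryos carried floxed Alk5 and the Wnt1-Cre transgene, which acts in neural crest cells, and were recognised by their cleft palate and calvarial defect. The controls were littermates from matings of Wnt1cre;Alk5fl/+ with Alk5fl/fl mice, on a strain labelled C57B6. The labels do not say which floxed alleles the controls carried, whether they carried Wnt1-Cre, or whether tissue was pooled. Both jaws had been cut into distal and proximal ends, and the 3 other regions (distal mandible, proximal maxilla and distal maxilla, 8 arrays each) served here for the shared estimate of spread and for tests of where the proximal mandible differed.

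TGF-beta ligands bind a type II receptor, which activates the type I receptor, and this in turn phosphorylates Smad2 and Smad3, which enter the nucleus with Smad4 and regulate transcription. Neural crest cells form the skeleton, tendons and connective tissue of the jaw, while muscle, endothelium, blood cells and surface epithelium come from other sources. In an embryo with Wnt1-Cre these other cells keep Alk5, and they were part of the dissected tissue.

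Expression values were log2 values on which a difference of 1 is a 2-fold change. The median value of the 8 arrays lay between 7.35 and 7.45. Arrays correlated at 0.983 to 0.995 within the KO group and at 0.973 to 0.993 within the control group. Control 1 stood apart: on the first principal component of the 8 arrays (40.9% of the variance) it lay at 41.52, against -18.76 to -1.86 for the KO arrays and 2.28 to 2.92 for the other 3 controls. A hybridisation spike-in (Cre of phage P1) read 13.77 on KO 1 and 14.02 on control 1, against 12.65 to 13.10 on the other 6 arrays, so both arrays of number 1 differed from the rest at the array step. Xist was high on KO 1 (13.76) and control 2 (13.53) and between 6.53 and 6.92 on the other 6 arrays, where Y-linked genes were expressed. Each genotype thus held 1 array of female tissue and 3 of male tissue. The labelled tissue was checked by markers: all 6 mandibular arch genes (Dlx3, Dlx5, Dlx6, Hand1, Hand2 and Pitx1) and all 7 neural crest mesenchyme genes of the marker lists were measured, none was called, and the log2 of their summed levels was 13.96 to 14.07 and 15.29 to 15.54 in KO tissue, against 14.07 to 14.16 and 15.43 to 15.57 in control tissue. The 4 measured upper jaw arch genes summed to 12.59 to 13.09 in KO tissue, against 13.09 to 13.37 in control tissue, so genes of that list were expressed as well. These sums alone do not tell the jaws apart. In control proximal maxilla Dlx6 averaged 8.87 and Hand2 7.91, against 11.02 to 11.80 and 10.71 to 11.78 on control proximal mandible arrays. Hand1 (7.12, against 7.14 to 7.35) and Pou3f3 (11.37, against 11.28 to 11.98) did not separate the jaws. The 2 measured hindbrain genes summed to 7.98 to 8.53 in KO tissue, against 7.89 to 8.21 in control tissue, and the 2 measured pituitary genes to 8.64 to 8.86 in KO tissue, against 8.52 to 8.81 in control tissue. None of these was called.

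The targeted gene was read first. Tgfbr1 had values of 12.97, 12.81, 12.86 and 12.90 in KO tissue, against 12.69, 12.82, 12.70 and 12.62 in control tissue. The difference was 0.18 ± 0.07 (SE) and did not pass the test (limma, adjusted p = 0.285), and the 2 dimmer probe sets of the gene differed by 0.12 and 0.21. It is not known here whether these probes match the floxed stretch, and transcript from cells outside the neural crest is included, so the reading checks nothing about the labels. Tgfbr2, the type II receptor that presents ligand to Alk5, had values between 11.42 and 11.79 in KO tissue, all below the 11.86 to 12.16 of control tissue, and its difference of -0.37 did not pass (adjusted p = 0.306).

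Of 13706 genes tested, 172 (1.25%) were called at an adjusted p under 0.05 with limma, 81 higher (0.591%) and 91 lower (0.664%) in KO tissue. Counts of called members in every gene list below stand against these shares. The median change over all genes was 0.01. Among the called genes 25 rose and 28 fell by more than 1 on the log2 scale. For 169 of the 172 the 4 KO and 4 control values did not overlap, as for 11.8% of all genes tested, and the exceptions were Shh, Lepr and Mpped2, the last of which was chosen after its values were seen. Because whole tissue was measured, fewer cells of a type and less RNA per cell cannot be told apart in any of these values. Without control 1 the count was 68, without KO 3 90 and without KO 4 105. Of the 76 called genes named by the rule given under the methods, 37 stayed called in all 8 fits that left out 1 proximal mandible array, and 36 lost their call without control 1.

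**Figure D1:**
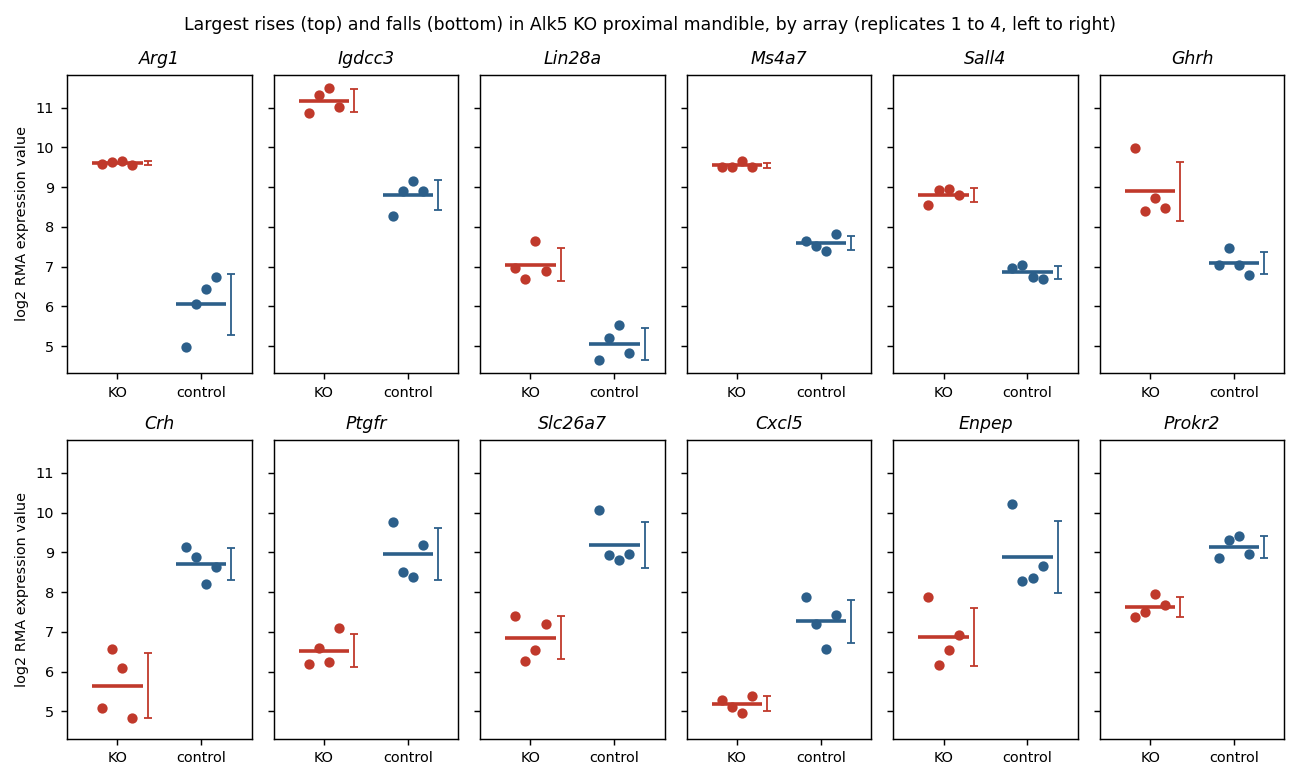
Log2 expression values of the 6 largest rises (top) and the 6 largest falls (bottom) among called genes, with KO at the left and control at the right of each panel; points are arrays 1 to 4 from left to right, horizontal lines are means, and error bars are SD (n = 4). In each of the 12 panels the KO and control values do not overlap, and control 1 is the highest control in Crh, Ptgfr, Slc26a7, Cxcl5 and Enpep.

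Arg1 had the largest change. Arg1, the arginase that splits arginine into ornithine and urea, read 9.57, 9.63, 9.64 and 9.56 in KO tissue, against 4.97, 6.06, 6.44 and 6.73 in control tissue. It rose by 3.55 ± 0.63 (SE, limma adjusted p = 0.00293), an 11.7-fold difference. The 4 KO values lay within 0.1 of one another on a level far above every proximal mandible control. Control arrays of the maxilla came nearer to that level. Control proximal maxilla read 8.0, 8.8, 9.4 and 6.1, and control distal maxilla read 8.83 on number 2, against 5.77 to 6.52 on its other numbers. Of the 4 control values, 3 were too dim to count as detected (under percentile 40 of their array, the filter level), and differences down there are compressed. In the other regions the KO minus control difference of Arg1 was 0.00 in distal mandible, 0.64 in proximal maxilla and 2.32 in distal maxilla. Every Arg1 value of distal mandible, KO and control, was under the filter level. The difference between the ends of the mandible did not pass (3.55, adjusted p = 0.296). Arg1 is also a gene of some macrophages. The log2 of the summed level of the 29 measured macrophage markers was 13.99 to 14.30 in KO tissue, against 13.24 to 13.66 in control tissue, with 8 of the 29 called higher and, of those 29, Lyve1 under the filter level on all 8 arrays. Their part in the rise of Arg1 was not tested.

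The second group of rises was made of genes of the Lin28 and let-7 axis. Lin28a encodes an RNA-binding protein of early embryonic cells that binds the precursors of let-7 microRNAs and blocks their maturation, and mature let-7 in turn represses transcripts that carry its sites, Lin28a among them. The members of the family share the seed, the bases that pair with targets, which is shown in capitals (bases 2 to 8) in 4 of the 8 let-7 5p microRNAs; the same 7 bases are found in all 8.
mmu-let-7a-5p: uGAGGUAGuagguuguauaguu
mmu-let-7d-5p: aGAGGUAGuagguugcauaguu
mmu-let-7g-5p: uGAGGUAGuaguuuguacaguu
mmu-let-7i-5p: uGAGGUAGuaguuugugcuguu
The precursor of let-7g is shown because its terminal loop holds the GGAG bases that the zinc knuckles of Lin28 bind (capitals). It lies at chr9:106178840-106178927 on the plus strand of GRCm38.p6, and 9 of the 11 let-7 hairpins carry GGAG between their arms. Sequences are from RefSeq, and the microRNAs themselves were not measured by these arrays.
Mirlet7g: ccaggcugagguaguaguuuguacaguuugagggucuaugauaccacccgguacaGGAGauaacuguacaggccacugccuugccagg

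Lin28a had values of 6.97, 6.69, 7.64 and 6.89 in KO tissue, against 4.65, 5.20, 5.54 and 4.82 in control tissue. The groups were separated by more than 1 unit. Lin28a rose by 1.99 ± 0.26 (adjusted p = 8.81e-05). All 4 control values and 1 KO value were under the filter level, so the size is approximate. Igdcc3, an immunoglobulin superfamily surface protein of the early embryo whose transcript is a predicted let-7 target, had 10.87, 11.33, 11.49 and 11.01 in KO tissue, against 8.27, 8.90, 9.16 and 8.90 in control tissue. It rose by 2.36 ± 0.30 (adjusted p = 8.56e-05), the largest rise after Arg1, and its second probe set differed by 1.93. Sall4, a zinc finger factor of embryonic stem cells, read 8.54, 8.92, 8.95 and 8.79 in KO tissue, against 6.96, 7.03, 6.75 and 6.68 in control tissue. It rose by 1.95 ± 0.40 (adjusted p = 0.00927). Trim71, a ubiquitin ligase first known as a let-7 target in worms, rose by 1.35 ± 0.28 (adjusted p = 0.00927, and 0.0598 without control 1). Arid3a, a DNA-binding protein, rose by 0.55 ± 0.08 (adjusted p = 0.000472), and Fign, a microtubule-severing enzyme, by 1.14 ± 0.25 (adjusted p = 0.0158). The call of Fign was lost without KO 3, without KO 4 and without control 1 (highest adjusted p = 0.083).

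Of 19 listed genes 15 were measured, and of these 6 rose, 0 fell and 9 did not pass. The share called was 40%, against 1.25% of all genes tested. All 15 changes lay above 0, with a median of 0.50, and for 14 of the 15 all KO values lay above all control values, as for 6.33% of all genes tested. The members that did not pass were between 0.12 (Dusp6) and 0.61 (Mycn, adjusted p = 0.16), with Arid3b at 0.50 (adjusted p = 0.129) and the nuclear receptor gene Nr6a1 at 0.33 (adjusted p = 0.0598). Lin28b was below the filter. The median level of the list on single arrays was 10.87 to 11.12 in KO tissue, against 9.53 to 9.70 in control tissue. In the other regions the list median was 0.45 in distal mandible, 0.30 in proximal maxilla and 0.22 in distal maxilla. Lin28a did not follow this order. It stood at 0.27 in distal mandible (limma adjusted p = 0.665), with every value there under the filter level. In proximal and distal maxilla it rose by 1.32 and 1.71 (adjusted p = 0.042 and 0.0031). Its difference between the ends of the mandible did not pass (adjusted p = 0.0838). The genes of this list were chosen with earlier results of these data known, so these counts are a description. The host transcript of let-7c-1, Mir99ahg, which was chosen after its values were seen, had 8.67 ± 0.22 in KO tissue and 8.60 ± 0.10 in control tissue (SD, n = 4 each). Prtg, another immunoglobulin superfamily receptor of early embryonic tissue, is no member of the list; it rose by 1.23 ± 0.22 (adjusted p = 0.00293) with all 4 KO values (8.89 to 9.19) above the controls (7.73 to 8.14).

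**Figure D2:**
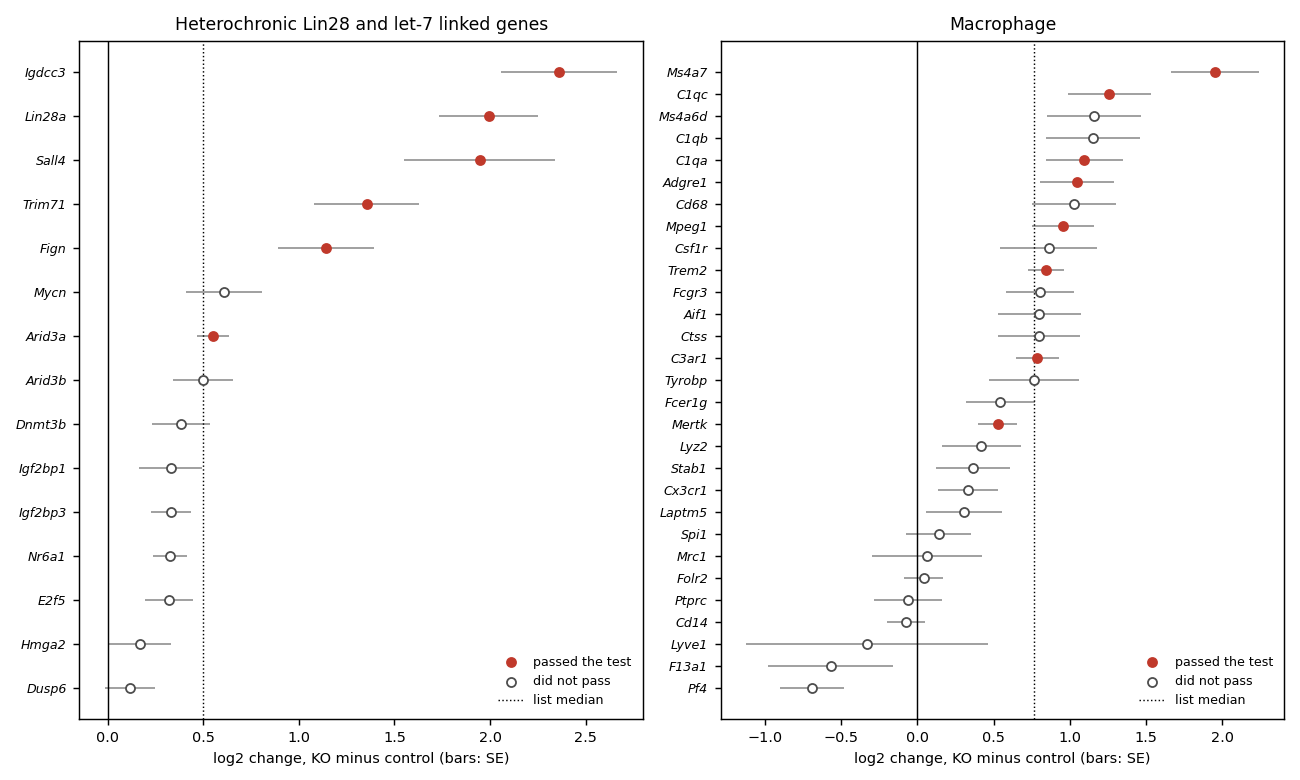
Log2 change, KO minus control, of each measured member of the Lin28 and let-7 linked list (left, 15 genes) and the macrophage list (right, 29 genes) in proximal mandible, with bars of 1 SE; filled points passed the test. All 15 points at the left lie above 0, and 24 of the 29 at the right do.

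Part of the macrophage genes rose. Of 29 measured members 8 rose (27.6%), 0 fell and 21 did not pass, with a median change of 0.77. Among all genes tested, 0.591% were called higher. Ms4a7, a membrane protein of tissue macrophages, had 9.50, 9.51, 9.65 and 9.51 in KO tissue, against 7.65, 7.52, 7.38 and 7.82 in control tissue. It rose by 1.95 ± 0.29 (adjusted p = 0.000374), and the groups were far apart. Trem2, a lipid-sensing receptor of macrophages and microglia, read 7.90, 7.91, 7.97 and 7.65 in KO tissue, against 7.25, 6.84, 6.90 and 7.08 in control tissue, and rose by 0.84 ± 0.12 (adjusted p = 0.000192). C3ar1, the receptor for complement fragment C3a, rose by 0.79 (adjusted p = 0.00295). C1qc and C1qa, chains of the complement component C1q that macrophages secrete, rose by 1.26 (adjusted p = 0.0137) and 1.10 (adjusted p = 0.0227), and their partner C1qb stood at 1.15 (adjusted p = 0.0628). Mpeg1, which encodes a pore-forming protein, rose by 0.96 (adjusted p = 0.0126), Adgre1, the F4/80 antigen, by 1.04 (adjusted p = 0.0249), and Mertk, a receptor for apoptotic cells, by 0.53 (adjusted p = 0.0303).

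The calls of Ms4a7, Trem2 and C3ar1 held in all 8 fits that left out 1 array, that of Mpeg1 was lost without KO 1 (adjusted p = 0.0661), that of C1qc without KO 1 and without control 2 (highest 0.055), and those of C1qa, Adgre1 and Mertk in 5, 6 and 7 of the 8. Csf1r, the receptor for the growth factor of macrophages, was at 0.86 (adjusted p = 0.22) with every KO value (10.88 to 11.14) above every control value (9.86 to 10.45). Not all markers lay above 0: the chemokine gene Pf4 was at -0.69, F13a1 and Lyve1 were also below 0, and none of these passed. For 18 of the 29 members all KO values were above all control values, as for 6.33% of all genes tested. Without KO 1 and control 2, the female arrays, the median of the list was 0.56 with 3 members called. In the other regions the list median was -0.24 in distal mandible, 0.72 in proximal maxilla and 0.57 in distal maxilla, and no list was tested for a difference between regions. Of the other blood cell lists, neutrophil, mast and lymphoid genes had 0 of 12 called and erythroid genes 0 of 9.

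Apolipoprotein genes rose as well. Apoe, a lipid carrier made by macrophages among other cells, had 11.84, 11.70, 11.68 and 11.61 in KO tissue, against 10.11, 9.94, 10.26 and 10.50 in control tissue. It rose by 1.51 ± 0.24 (adjusted p = 0.000714) with no overlap. Apoc1, its chromosomal neighbour, rose by 1.18 ± 0.20 (adjusted p = 0.00204). Both stayed called in all 8 fits without 1 array. In distal mandible their differences were 0.39 and -0.24, in proximal maxilla 1.11 and 0.73, and in distal maxilla 0.91 and 0.67, none of them called. For Arg1 these differences were 0.00, 0.64 and 2.32, likewise not called. The summed macrophage level given with Arg1 was higher on all 4 KO arrays, and its part in these rises was not tested. Of 19 measured genes of amino acid and lipid metabolism Arg1, Apoe and Apoc1 rose, 0 fell and 16 did not pass, with a median of 0.13, or 0.05 without KO 1 or without control 1.

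Several hormone and neuropeptide genes changed in opposite directions. Crh, the corticotropin-releasing hormone of the stress axis, had 5.10, 6.57, 6.10 and 4.82 in KO tissue, against 9.14, 8.88, 8.20 and 8.64 in control tissue. It fell by 3.07 ± 0.54 on the log2 scale (adjusted p = 0.00264), 8.39-fold, and had the largest fall of all. All 4 KO values lay under the filter level, so the size is approximate. Its differences in the other regions were -0.16 in distal mandible, -0.39 in proximal maxilla and -0.17 in distal maxilla, but the test of the difference by end did not pass (adjusted p = 0.329). On every array of those regions, KO and control, Crh lay between 3.46 and 6.67, under the filter level, so a fall there could hardly be read. Ghrh, the growth hormone-releasing hormone of the hypothalamus, read 9.98, 8.40, 8.72 and 8.47 in KO tissue, against 7.05, 7.47, 7.05 and 6.78 in control tissue. Ghrh rose by 1.81 ± 0.23 (adjusted p = 8.56e-05), with KO 1 well above the other KO arrays, and by 1.44 without KO 1. In the other regions its differences were 0.16 to 0.20, and the tests of the difference gave adjusted p = 0.057 by end and 0.121 by jaw. All Ghrh values of those regions (5.1 to 6.2) were under the filter level, so differences there are compressed.

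The prokineticin receptor genes Prokr2 and Prokr1, which bind secreted peptides that guide neuron migration and vessel growth, also fell. Prokr2 had 7.37, 7.51, 7.96 and 7.67 in KO tissue, against 8.85, 9.30, 9.42 and 8.95 in control tissue, and fell by 1.50 ± 0.27 (adjusted p = 0.00323). Prokr1 fell by 1.21 ± 0.30 (adjusted p = 0.0374), a call lost in 5 of 8 fits without 1 array (highest adjusted p = 0.208, without control 1). Lepr, the leptin receptor, fell by 1.16 ± 0.25 (adjusted p = 0.0133) although KO 1 (8.75) overlapped the lowest control (8.74), and its call was lost without KO 2, KO 4 or control 1 (highest 0.0901). Of the 27 measured hormone, neuropeptide and receptor genes, which do not include Lepr, 1 rose, 3 fell and 23 did not pass, with a median of -0.20, or -0.08 without KO 4 and -0.13 without control 1. Neuron markers had 0 of 23 called and a median of -0.58, with Ret under the filter level on all 8 arrays. Their log2 summed level was 12.59 to 13.83 in KO tissue, against 13.26 to 14.81 in control tissue, and their part in these changes was not tested. The neuron median depended on single arrays: it was -0.34 without control 2, -0.15 without control 3 and -0.92 without control 4.

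Ptgfr, the receptor for prostaglandin F2-alpha, had 6.18, 6.60, 6.25 and 7.09 in KO tissue, against 9.78, 8.50, 8.37 and 9.18 in control tissue. It fell by 2.43 ± 0.43 (adjusted p = 0.00295) without overlap, and its differences in the other regions were -2.28 in distal mandible, which was called, and -0.57 in proximal and -0.43 in distal maxilla, which were not. In proximal mandible 3 of its KO values were under the filter level, so the size is approximate. Of 14 measured prostaglandin genes Ptgfr was the 1 called. Cxcl5, a chemokine that attracts neutrophils, read 5.29, 5.11, 4.97 and 5.39 in KO tissue, against 7.88, 7.19, 6.58 and 7.42 in control tissue. It fell by 2.08 ± 0.28 (adjusted p = 0.000162), and all 4 KO values were under the filter level. Of 25 listed chemokines and cytokines, 13 were measured and Cxcl5 alone was called. Slc26a7, an anion transporter, had 7.40, 6.27, 6.54 and 7.21 in KO tissue, against 10.05, 8.92, 8.80 and 8.96 in control tissue, a fall of 2.33 ± 0.54 (adjusted p = 0.0249). Enpep, an aminopeptidase that cleaves angiotensin II, had 7.87, 6.17, 6.55 and 6.92 in KO tissue, against 10.22, 8.29, 8.36 and 8.65 in control tissue, a fall of 2.00 ± 0.42 (adjusted p = 0.0126). In both of the last genes control 1 was more than 1 unit above the other controls, and the calls were lost without it (adjusted p = 0.133 and 0.0884) and also without KO 2 and without KO 3. Slc26a7 and Enpep each had 2 KO values under the filter level, so their sizes are approximate too.

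In the TGF-beta pathway itself few members were called. Of 25 measured ligands, receptors, Smads and their regulators, 1 rose, 1 fell and 23 did not pass, with a median of -0.01. Inhba, the beta A subunit of activin, which signals through related receptors, had 8.25, 8.56, 8.33 and 8.48 in KO tissue, against 10.24, 9.40, 9.54 and 9.52 in control tissue. Inhba fell by 1.27 ± 0.21 (adjusted p = 0.00159) and stayed called without control 1, where the fall was 1.08 (adjusted p = 0.013). Acvr2b, a type II activin receptor, rose by 0.71 ± 0.17 (adjusted p = 0.0318), with KO values of 10.44 to 11.19 and control values of 9.90 to 10.12; 6 of the 8 fits without 1 array lost this call. Smad3, which carries the signal of Alk5 to the nucleus, was at 0.02, and the inhibitory Smad7, which TGF-beta induces, at -0.25 (adjusted p = 0.623).

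Few genes known to respond to TGF-beta were called. Of 26 measured, 0 rose, 1 fell and 25 did not pass. The median was -0.30, 24 changes were below 0, and for 7 members all KO values were below all control values, as for 5.49% of all genes tested. Lmcd1, a LIM domain protein of muscle and connective tissue, was the called gene, with a fall of 0.99 ± 0.23 (adjusted p = 0.0295). Its call was lost without KO 3, KO 4, control 1 or control 4 (highest 0.147). Postn, the matrix protein periostin, read 11.92 to 12.52 in KO tissue, against 12.61 to 13.64 in control tissue (-0.67, adjusted p = 0.209). Col1a1, the main chain of type I collagen, had 11.73, 11.51, 11.29 and 11.01 in KO tissue, against 13.04, 11.90, 11.98 and 11.80 in control tissue (-0.80, adjusted p = 0.138). In both, the groups did not overlap and control 1 was the highest array by far.

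Members of the neighbouring signalling families were called singly. In the BMP list 1 of 22 rose, 2 fell and 19 did not pass. Bmpr1b, a type I BMP receptor, had 11.28, 10.97, 11.26 and 11.07 in KO tissue, against 9.31, 10.06, 9.90 and 9.70 in control tissue, and rose by 1.41 ± 0.32 (adjusted p = 0.0207). Acvr1, another type I receptor of the family, fell by 0.56 ± 0.11 (adjusted p = 0.00618), and the ligand gene Bmp2 fell by 0.87 ± 0.19 (adjusted p = 0.016). Acvr1 stayed called in all 8 fits without 1 array, but not with the median over its probe sets (-0.43, adjusted p = 0.602) or without the 2 high-Xist arrays (adjusted p = 0.0804). Bmp2 was lost without KO 2 or control 1 and Bmpr1b without KO 1, KO 3, KO 4 or control 1 (highest 0.11 for each). The BMP median of -0.19 was -0.12 without control 1 and -0.13 without KO 4.

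Wnt9a, a ligand expressed around developing joints, was the 1 gene called of 29 in the Wnt list. It read 7.41, 7.65, 7.30 and 7.62 in KO tissue, against 8.91, 8.33, 8.30 and 8.34 in control tissue, and fell by 0.98 ± 0.14 (adjusted p = 0.000247). The groups did not overlap, and the call held in all 23 alternative fits that were tried. Shh, the hedgehog ligand of oral epithelium, rose by 1.49 ± 0.37 (adjusted p = 0.0347) as the 1 gene called of 14 in its pathway. Its values overlapped, with 8.99, 10.01, 10.29 and 10.48 in KO tissue, against 8.23, 9.12, 7.59 and 8.85 in control tissue, and 5 of the 8 fits without 1 array lost the call. With the median over its probe sets Shh was at 0.85 (adjusted p = 0.207). Epithelial and tooth bud genes, of which Shh is one, had 1 of 23 called and a median of 0.33, or 0.49 without control 4. Their log2 summed level was 14.82 to 15.15 in KO tissue, against 14.44 to 15.02 in control tissue, with Ovol1 and Fgf20 under the filter level on all 8 arrays, and their part in the rise of Shh was not tested. The FGF feedback inhibitor gene Spry4 fell by 0.66 (adjusted p = 0.0126, lost without KO 3 or control 1, and at -0.34 with adjusted p = 0.792 with the median over probe sets), and the retinoic acid-binding protein gene Crabp1 rose by 0.95 (adjusted p = 0.00502). The Notch ligand gene Jag1 fell by 0.71 (adjusted p = 0.00633).

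Of 42 measured jaw patterning transcription factor genes 2 rose, 0 fell and 40 did not pass, with a median of -0.08. For 5 members all KO values lay above all control values, and for 9 they lay below. Among all genes tested these shares were 6.33% and 5.49%. Of members that did not pass, Dlx4 stood at 0.97 on both probe sets. Dlx3, chosen after its values were seen, stood at 1.16 (limma adjusted p = 0.288), with KO values of 10.35 to 11.25 and control values of 9.44 to 9.69. Gbx2, a homeobox gene of the midbrain boundary and the first pharyngeal arch, had 8.51, 8.23, 9.10 and 8.58 in KO tissue, against 6.04, 7.56, 6.89 and 6.89 in control tissue. Gbx2 rose by 1.76 ± 0.27 (adjusted p = 0.000578), and all 8 fits without 1 array kept the call. Its differences in the other regions were 0.63 in distal mandible, 0.26 in proximal maxilla and -0.29 in distal maxilla. All Gbx2 values of those regions (4.6 to 6.1) were under the filter level. Foxd1, a forkhead gene, read 11.25, 11.56, 11.54 and 11.53 in KO tissue, against 9.72, 10.93, 9.57 and 10.34 in control tissue. It rose by 1.33 ± 0.29 (adjusted p = 0.0145), a call lost without KO 3, control 1 or control 3 (highest 0.0885). Hox genes, which pattern tissue behind the first arch, had 0 of 8 called, but some were well above the filter level on single arrays. Hoxa2, chosen after its values were seen, read 10.35, 9.27, 5.57 and 5.13 in KO tissue, against 4.95, 9.34, 8.62 and 8.73 in control tissue. Hoxd1 read 9.25, 8.04, 8.83 and 7.93 in KO tissue, against 7.31, 11.01, 11.37 and 11.20 in control tissue. Arrays of the same genotype differed widely, in KO and control tissue for Hoxa2 and in control tissue for Hoxd1. What part this had in the changes of other genes was not tested.

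Other transcription factors were among the called genes. Runx1, a runt domain factor of blood and skeletal precursors, had 8.11, 8.35, 8.64 and 8.59 in KO tissue, against 9.54, 9.84, 10.12 and 9.77 in control tissue. It fell by 1.40 ± 0.22 (adjusted p = 0.000915), with no overlap. With the median over its probe sets the fall was 0.70 and did not pass (adjusted p = 0.0522), the other probe sets lying between -1.18 and -0.17. It was the 1 gene called of 6 in the Runx list. Nfix, a nuclear factor I gene, fell by 1.36 ± 0.29 (adjusted p = 0.0134), with 11.21, 11.01, 10.97 and 10.69 in KO tissue, against 13.01, 12.15, 12.12 and 12.04 in control tissue. Its call was lost without control 1 (adjusted p = 0.0909) and without KO 4. Nfia, of the same family and chosen after its values were seen, fell by 0.56 ± 0.14 (adjusted p = 0.0345). Zbtb16, which encodes a zinc finger repressor, rose by 1.04 ± 0.19 (adjusted p = 0.00323). Chd7, a chromatin remodeller likewise chosen after its values were seen, rose by 0.98 ± 0.20 (adjusted p = 0.01), with 9.48 to 10.08 in KO tissue and 8.67 to 8.78 in control tissue.

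Some matrix genes fell. Of 41 measured proteoglycan, glycoprotein and matrix enzyme genes 0 rose, 5 fell (12.2%) and 36 did not pass. Among all genes tested, 0.664% were called lower. The median of the list was -0.36. Has2, the main hyaluronan synthase of the embryo, read 9.61, 9.44, 9.47 and 9.42 in KO tissue, against 10.82, 10.25, 10.11 and 10.10 in control tissue. It fell by 0.84 ± 0.15 (adjusted p = 0.0026) and was the member whose call held in all alternatives tried. The small leucine-rich proteoglycan gene Ogn had 11.25, 11.19, 10.81 and 10.57 in KO tissue, against 12.54, 11.97, 12.17 and 11.97 in control tissue, and fell by 1.21 ± 0.24 (adjusted p = 0.00866). Lum, of the same family, fell by 0.91 (adjusted p = 0.0105), the elastic fibre gene Fbln5 by 0.96 (adjusted p = 0.0169) and the microfibril gene Mfap4 by 0.51 (adjusted p = 0.00816). Without control 1, Ogn (0.0571), Lum (0.0744), Fbln5 (0.11) and Mfap4 (0.0614) did not pass, the list had 1 call, and its median was -0.17. Lum was also lost without KO 3, and Fbln5 without KO 1 and without KO 4.

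Several members with larger differences did not pass. Aspn, another leucine-rich proteoglycan gene, had 7.85, 9.11, 8.68 and 8.57 in KO tissue, against 12.71, 10.43, 10.27 and 10.21 in control tissue (-2.35, adjusted p = 0.0603). Dcn, which encodes the collagen-binding decorin, had 11.96, 11.41, 11.13 and 11.05 in KO tissue, against 12.75, 12.26, 12.58 and 12.68 in control tissue (-1.18, adjusted p = 0.0628). Kera stood at -1.74 (adjusted p = 0.0834). In all 3 the groups did not overlap, and for 18 of the 41 members all KO values lay below all control values, as for 5.49% of all genes tested. Among 31 collagen chains 1 rose and 1 fell: Col18a1, a basement membrane chain, rose by 0.52 (adjusted p = 0.0224) and Col8a1 fell by 1.10 (adjusted p = 0.0295). Both calls were lost in 4 or more of the 8 fits without 1 array, and the collagen median of -0.36 was -0.20 without control 1. Enzymes that modify matrix or peptides at the cell surface also fell, among them Mme, the endopeptidase neprilysin (-1.08, adjusted p = 0.00633), and P4ha3, a collagen prolyl hydroxylase (-1.12, adjusted p = 0.0475, and 0.275 without control 1).

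**Figure D3:**
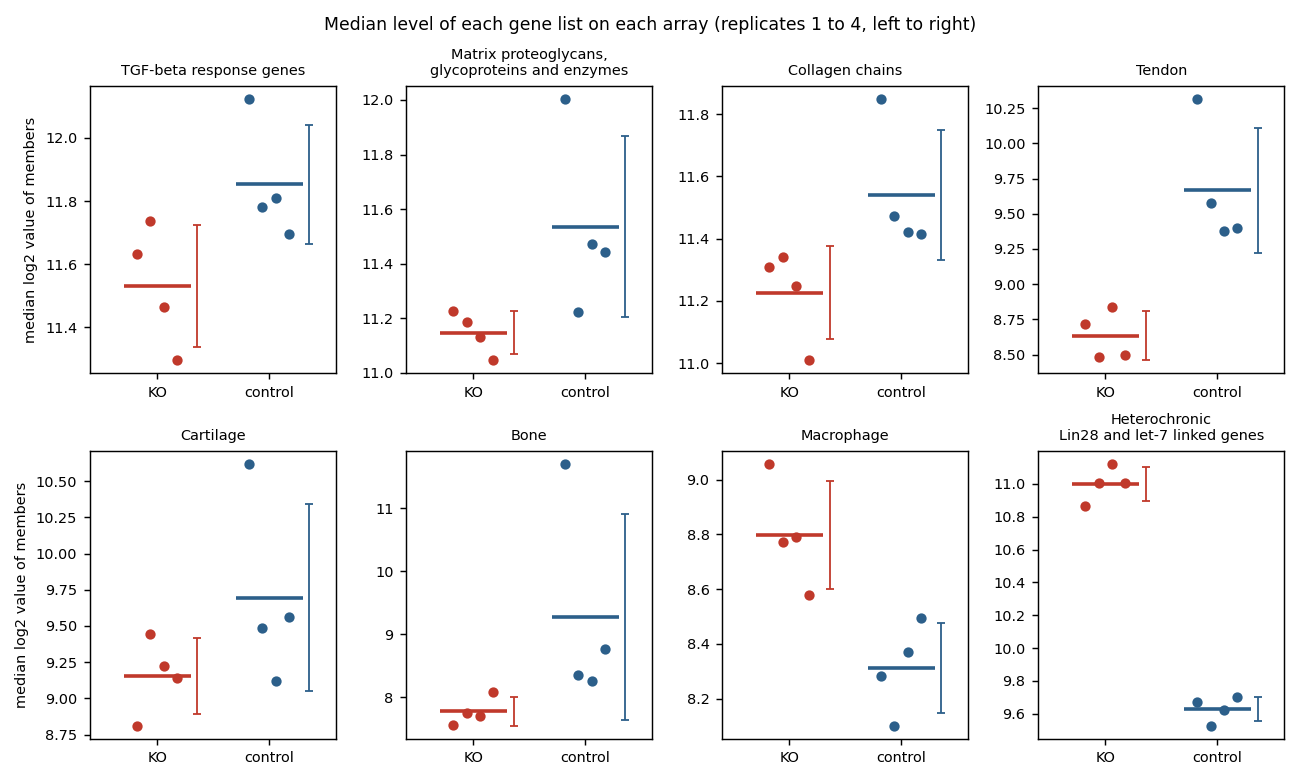
Median log2 level of the measured members of 8 gene lists on each proximal mandible array, with KO at the left and control at the right; points are arrays 1 to 4 from left to right, lines are means and error bars SD (n = 4). Control 1 lies above the other controls in 6 of the panels, at 11.70 for bone genes against 8.26 to 8.77, while the Lin28 and let-7 list separates the genotypes at 10.87 to 11.12 for KO and 9.53 to 9.70 for control arrays.

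Skeletal lists had low medians and few calls. Cartilage genes had 0 of 25 higher, 1 lower and a median of -0.58, which was -0.31 without control 1. Otor, a secreted protein of cartilage and the inner ear, had 9.80, 10.71, 11.02 and 10.57 in KO tissue, against 11.71, 12.12, 11.83 and 11.80 in control tissue, and fell by 1.34 ± 0.33 (adjusted p = 0.0381); 7 of the 8 fits without 1 array lost the call. Sox9, the regulator of chondrocyte fate, was at 0.26 and Col2a1, the collagen of cartilage, at 0.01, and neither passed. Bone genes had 0 of 15 called by limma, 14 of 15 changes below 0 and a median of -0.80. Sp7, the osteoblast regulator osterix, had 7.56, 8.33, 7.77 and 8.41 in KO tissue, against 11.49, 9.04, 8.82 and 9.16 in control tissue (-1.61, adjusted p = 0.165). The median level of the bone list on single arrays was 7.56 to 8.09 in KO tissue, against 11.70 on control 1 and 8.26 to 8.77 on the other controls, and the median change without control 1 was -0.27.

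Tendon genes had 1 of 16 called, 15 of 16 changes below 0 and a median of -0.78, or -0.59 without control 1. Cilp, a matrix protein of cartilage and tendon, had 6.02, 6.22, 5.94 and 5.67 in KO tissue, against 7.16, 6.85, 6.91 and 6.85 in control tissue. It fell by 0.98 ± 0.17 (adjusted p = 0.00276) with all 4 KO values under the filter level. Scx, the transcription factor of tendon cells, was at -0.65 with KO values (7.52 to 8.22) below control values (8.29 to 8.56) and did not pass (adjusted p = 0.39). For 9 of the 16 members all KO values lay below all control values, as for 5.49% of all genes tested. Among 12 osteoclast genes 0 rose and 2 fell: Ctsk, the bone matrix protease cathepsin K, by 0.81 (adjusted p = 0.00935) and Nfatc1, the regulator of osteoclast formation, by 0.82 (adjusted p = 0.00295). Both stayed called in all 8 fits without 1 array, and neither gene is limited to osteoclasts. Nfatc1 did not pass with the median over its probe sets (-0.34, adjusted p = 0.342) or without the 2 high-Xist arrays (-0.70, adjusted p = 0.0567). Muscle lists had no call: regulators had 0 of 18 called (median -0.03) and sarcomere genes 0 of 29 (median -0.09).

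Vessel and nerve genes had single calls. Aplnr, the apelin receptor of endothelium and mesoderm, fell by 0.84 (adjusted p = 0.0383), 1 of 23 endothelial genes, and 6 of 8 fits without 1 array lost that call. Angpt1, which encodes the angiopoietin that activates Tie2, fell by 1.22 ± 0.26 (adjusted p = 0.0137); it had 8.81, 9.17, 8.55 and 8.92 in KO tissue, against 11.28, 9.60, 9.61 and 9.87 in control tissue, and its call was lost without KO 3 (adjusted p = 0.069) and without control 1, where the fall was 0.83 (adjusted p = 0.066). Of 34 axon guidance genes 0 rose and 3 fell. These were the netrin receptor gene Unc5d (-1.02, adjusted p = 0.0272), the semaphorin co-receptor gene Nrp2 (-0.55, adjusted p = 0.0152) and Lrrn3 (-0.79, adjusted p = 0.0444), whose calls were lost in 6, 2 and 6 of the 8 fits. Proliferation genes had 0 of 29 called, although 28 of the 29 changes lay above 0 with a median of 0.15.

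**Figure D4:**
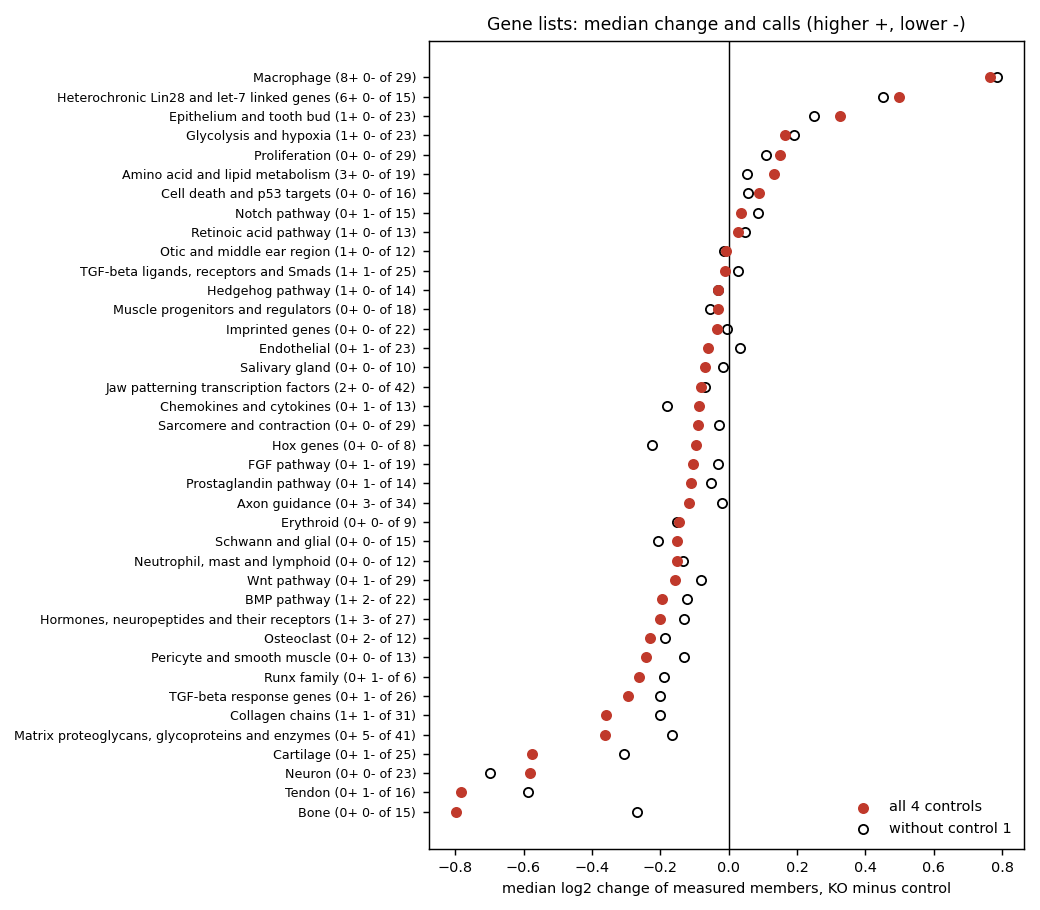
Median log2 change, KO minus control, of the measured members of each gene list in proximal mandible (filled points), and the same without control 1 (open points); the labels give the numbers of members called higher (+) and lower (-) of those measured. Macrophage (0.77) and Lin28 and let-7 linked genes (0.50) lie highest, and bone (-0.80) and tendon genes (-0.78) lowest, the bone median being -0.27 without control 1.

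The remaining genes of the 25 largest changes in each direction belong to none of these groups. Trpm1, a cation channel of pigment cells and retina, had the smallest p-value of the comparison, with 7.40, 7.91, 8.46 and 7.83 in KO tissue, against 5.94, 6.68, 6.48 and 6.51 in control tissue. It rose by 1.50 ± 0.17 (adjusted p = 4.4e-05), although 3 of its 4 control values were under the filter level and its 2 dimmer probe sets differed by 0.49 and 0.03. With the median over the probe sets it was at 0.39 and did not pass (adjusted p = 0.288). Pigment cell genes had 0 of 5 called. Sned1, a secreted matrix protein, had 10.78, 10.42, 10.02 and 10.48 in KO tissue, against 8.88, 8.54, 8.57 and 8.73 in control tissue, and rose by 1.74 ± 0.29 (adjusted p = 0.00166). Eno3, the muscle form of the glycolytic enzyme enolase, rose by 1.01 ± 0.18 (adjusted p = 0.00324) as the 1 gene called of 23 in glycolysis and hypoxia (median 0.16, or 0.10 without KO 2). Syt17, of the synaptotagmin family, rose by 1.07 (adjusted p = 0.00773, and 0.0588 without control 1), and the transcript B130024G19Rik by 1.03 (adjusted p = 0.00367). Lower were Gprin3 (-1.42), Calml4 (-1.35), Dclk3 (-1.35), C1qtnf7 (-1.31), Arsj (-1.28), Tekt2 (-1.26), Tmem100 (-1.17) and Nxnl2 (-1.13). Of these 8, Dclk3, C1qtnf7 and Tekt2 stayed called in all 8 fits without 1 array, and Dclk3 lost its call without the 2 high-Xist arrays (adjusted p = 0.0637). The sizes for Gprin3, Dclk3, Arsj and Calml4 are approximate. All 4 KO values of Gprin3, Dclk3 and Arsj and 3 of those of Calml4 were under the filter level, as were 3 control values of Gprin3.

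The next question was where the proximal mandible differed from other regions. The interaction of genotype with the end of the mandible called 3 genes (0.0219%) of 13706, all with a more positive KO minus control difference in the proximal end, and 581 genes had an unadjusted p under 0.05. Emx2, a homeobox gene of forebrain and urogenital development, had 11.07, 10.47, 10.99 and 10.37 in KO proximal mandible, against 9.0, 10.73, 9.35 and 10.22 in control proximal mandible. In distal mandible it averaged 8.16 in KO tissue and 10.61 in control tissue. Its difference was thus 0.90 in the proximal end (adjusted p = 0.145), where the groups overlapped, and -2.45 in the distal end (adjusted p = 3.83e-05), and the interaction was 3.35 ± 0.41 (adjusted p = 0.000144). E330013P04Rik, a long non-coding RNA on the same chromosome (19) as Emx2, rose by 0.76 in the proximal end (adjusted p = 0.0475) and stood at -1.20 in the distal end, with an interaction of 1.96 ± 0.28 (adjusted p = 0.00101). Its call in the proximal end was lost in 5 of the 8 fits without 1 array (highest adjusted p = 0.266, without control 1) and held in 8 of the 22 alternatives that tested it. Lhfpl3, a tetraspan membrane protein, had 7.60, 7.20, 7.59 and 6.88 in KO tissue, against 5.74, 6.11, 5.89 and 5.90 in control tissue, and rose by 1.41 ± 0.17 (adjusted p = 7.38e-05). Its differences elsewhere were -0.07 in distal mandible, -0.14 in proximal maxilla and -0.26 in distal maxilla. On every array of those regions, KO and control, Lhfpl3 lay between 5.33 and 6.43, under the filter level, so differences there are compressed.

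Lhfpl3 passed both interaction tests, that with the end at 1.48 ± 0.24 (adjusted p = 0.00906) and that with the jaw at 1.54 ± 0.24 (adjusted p = 0.0135). All 4 of its control values in proximal mandible were under the filter level, as were all its values in the other regions. Both tests thus set the rise against regions where the gene was too dim to count as detected. The 3 calls by end held in all 8 fits without 1 proximal mandible array, and the call by jaw was lost without KO 3 and without control 1. The jaw interaction called no other gene of 13706 (0.0073%), and 298 genes had an unadjusted p under 0.05. By end, the closest others among the genes called in proximal mandible were Ghrh (1.63), Apoc1 (1.43), Lrrn3 (-1.42) and Prcd. Each stood at adjusted p = 0.057 (limma), and all were chosen after their values were seen. The change of Prcd was 0.55 in the proximal and 0.00 in the distal end. The remaining called genes of the proximal mandible, Arg1 and Crh included, were not shown to differ between regions.

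**Figure D5:**
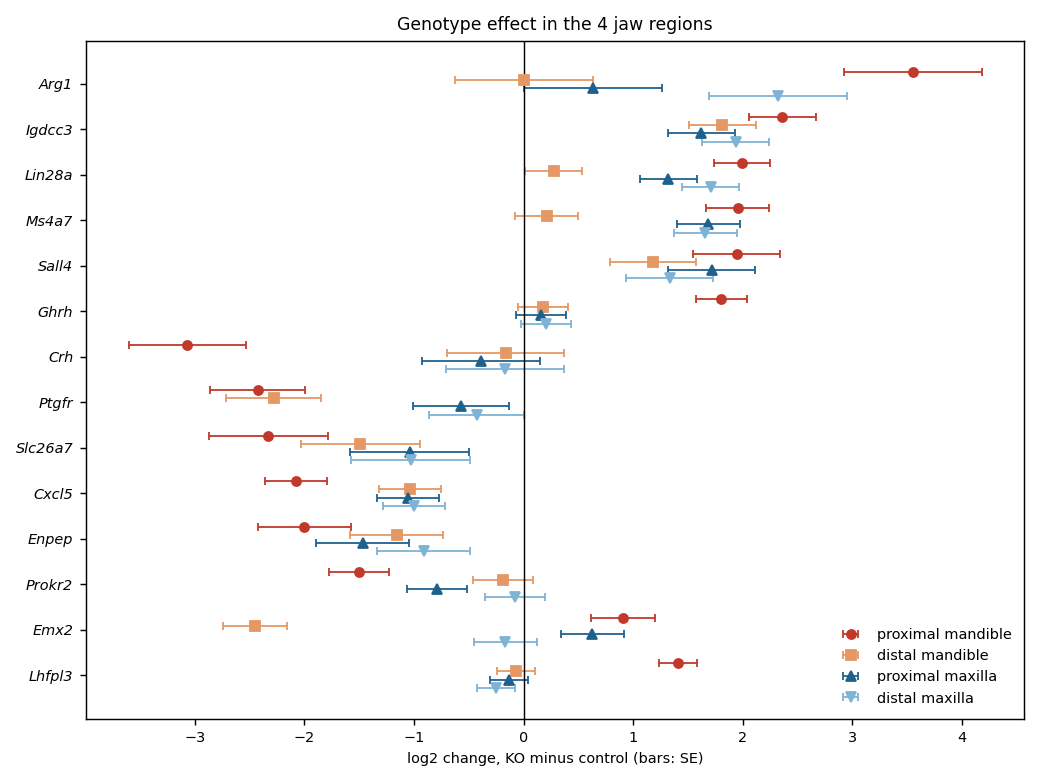
Log2 change, KO minus control, in the 4 regions for the 6 largest rises and 6 largest falls of the proximal mandible and for Emx2 and Lhfpl3, with bars of 1 SE. Igdcc3 lies between 1.62 and 2.36 in all 4 regions, and Emx2 lies at 0.90 in proximal and -2.45 in distal mandible.

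Of the 172 genes called in proximal mandible, 107 were called in no other region, 45 in 1 other, 17 in 2 others and 3 in all others. The 3 were Igdcc3, Eno3 and H2az2, a histone variant gene chosen after its values were seen, which fell by 0.34 ± 0.07 (adjusted p = 0.0126). With distal mandible, where 262 genes (1.91%) were called, 53 were shared and 52 of these had the same direction, which is 30.8% of the proximal calls and 20.2% of the distal ones. With distal maxilla, where 108 (0.788%) were called, 26 were shared, 25 in the same direction (15.1% and 24.1%). All 9 genes called in proximal maxilla (0.0657%) were among the 172, which they form 5.23% of. Regions with the same number may come from the same embryos, so these overlaps are a description.

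For the 3 largest changes in each direction, the genes with the most similar pattern over all 32 arrays were listed. The nearest to Arg1 were Ldhb (Pearson r = 0.84), Chd7 (0.838) and Apoe (0.823), to Igdcc3 Senp8 (0.90), Trim6 (0.87) and Nrm (0.869), and to Lin28a Ms4a7 (0.892), C3ar1 (0.863) and Igdcc3 (0.856). Nearest to Crh were Hkdc1 (0.82), Nfatc1 (0.811) and Prokr1 (0.801), to Ptgfr Cxcl5 (0.841), Tnfsf11 (0.826) and Slc26a7 (0.792), and to Slc26a7 Bmp6 (0.919), Def6 (0.89) and Omd (0.873). The 32 arrays share regions, genotypes and array handling, so these values describe likeness only.

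Promoters of called genes were read for CAGACA on either strand, the core of the CAGA box that Smad3 and Smad4 bind (on the other strand TGTCTG). The window ran from 250 bases before to 50 bases after the start of each gene with 1 RefSeq promoter entry. The motif was found in 12 of 46 promoters of genes called higher (26.1%), in 12 of 50 of genes called lower (24%) and in 1399 of 8762 promoters of all genes tested (16%). Shown are the 2 largest rises and the 2 largest falls among the genes that hold it, with the motif in capitals. They lie on GRCm38.p6 at chr13:98353995-98354294, plus strand (Foxd1), chr4:136892865-136893164, minus strand (C1qc), chr6:59426257-59426556, minus strand (Gprin3), and chr2:143078143-143078442, plus strand (Otor). A match is a description of the letters and not of binding.
Foxd1: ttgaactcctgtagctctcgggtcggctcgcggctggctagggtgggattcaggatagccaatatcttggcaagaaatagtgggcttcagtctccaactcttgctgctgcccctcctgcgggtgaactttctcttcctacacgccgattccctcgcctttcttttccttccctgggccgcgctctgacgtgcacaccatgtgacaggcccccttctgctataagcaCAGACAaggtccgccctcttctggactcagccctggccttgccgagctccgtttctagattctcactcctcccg
C1qc: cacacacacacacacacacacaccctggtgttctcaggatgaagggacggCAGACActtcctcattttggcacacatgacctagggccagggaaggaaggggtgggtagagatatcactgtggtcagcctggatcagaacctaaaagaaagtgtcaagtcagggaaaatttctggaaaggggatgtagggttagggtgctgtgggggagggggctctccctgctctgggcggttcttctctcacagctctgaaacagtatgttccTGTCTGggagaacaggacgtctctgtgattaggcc
Gprin3: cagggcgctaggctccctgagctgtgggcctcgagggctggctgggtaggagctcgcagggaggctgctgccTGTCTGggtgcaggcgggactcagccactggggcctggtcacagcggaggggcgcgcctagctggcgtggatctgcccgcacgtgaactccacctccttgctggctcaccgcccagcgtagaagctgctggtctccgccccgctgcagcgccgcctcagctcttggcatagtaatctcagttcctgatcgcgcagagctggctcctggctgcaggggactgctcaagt
Otor: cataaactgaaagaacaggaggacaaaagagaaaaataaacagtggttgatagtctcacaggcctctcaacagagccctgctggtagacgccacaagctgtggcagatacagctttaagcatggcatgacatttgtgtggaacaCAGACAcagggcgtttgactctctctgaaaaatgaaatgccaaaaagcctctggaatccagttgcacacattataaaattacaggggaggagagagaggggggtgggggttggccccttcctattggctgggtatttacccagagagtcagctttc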

How the data were processed

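The deposited table held a log2 value for each of 45101 probe sets on each array, which the authors made with RMA, per the submitters' processing notes, which give no version. RMA corrects the background, equalises the distributions of the arrays by quantiles and summarises probes by median polish. Scanner files were not used here. The log2 scale of the deposited table was checked on its range. A change common to most genes would therefore not be seen. Per the labels' protocols, 5 µg of total RNA went into the labelling of each sample. The number of arrays limits the precision.

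Probe sets were named from the platform annotation: 34958 had 1 gene symbol, 932 had several and 9147 had none, and only the first kind named a gene. Entrez identifiers of 34754 probe sets matched a RefSeq gene table (GRCm38.p6), which changed 0 symbols. Probe sets above percentile 40 of their array on at least 4 of the 32 arrays were kept, and the one with the highest mean over all arrays stood for its gene, which left 13706 genes, 6535 of them with several probe sets. Of the called genes named, 31 had other probe sets past the filter, and 0 had one of opposite sign.

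A model of the 8 group means (limma 3.58.1, R 4.3.3; 24 residual degrees of freedom) gave KO minus control in proximal mandible, with p-values moderated by eBayes and adjusted by Benjamini-Hochberg over all genes, at a threshold of 0.05, and the interactions of genotype with end (in the mandible) and with jaw (at the proximal end). The scripts were tested on simulated data. Replicates are the arrays the labels number 1 to 4. Nothing says that they came from separate embryos, so the p-values rest on array to array spread, which may be technical in part. Xist was high in all 4 regions on KO number 1 (13.34 to 13.90) and on control number 2 (13.53 to 14.06). Regions of 1 number and genotype may therefore share embryos. Control number 3 did not read alike in its regions. Xist was 9.69 in distal and 10.72 in proximal maxilla, against 6.70 in distal and 6.84 in proximal mandible. Y-linked genes were expressed on all 4 of these arrays. The proximal maxilla array enters the interaction by jaw, and the origin of its Xist reading was not tested. The model took the 32 arrays as independent, in both interaction tests too. The block tried among the alternatives joined KO and control arrays of equal number and did not cover embryos shared between regions.

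Named were Tgfbr1, the 25 largest called changes in each direction, the called members of 41 gene lists with up to 4 members of smallest adjusted p per list, up to 8 called genes per direction for each interaction, and the 3 genes of most similar pattern for the 3 largest changes each way. The part of the study, the lists and the rule were chosen with earlier results of these data known. No p is adjusted over a list alone.

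The labels do not say that equal numbers pair the arrays, and 1 of the 4 numbers did not meet the correlation set for pairing, so the number was not used as a block in the model reported. Alternatives covered the arrays in the model, the number as a block, number 1 as a batch, repeated normalization, filters, probe set choice, eBayes settings, array weights and arrays left out.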

Additional observations from a re-analysis of the deposited data

Results flagged for a closer look

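Among the groups of 4 arrays, 152 groups of called genes and 82 of list medians were examined for an array far from the other 3, by the gap to its nearest neighbour as a share of the range; chance marks about 1 in 20. Of the genes, 11 were marked, 7 of them for control 1: Syt17 (7.36, against 7.98 to 8.09 on the other controls), Slc26a7 (10.05), Nfix (13.01), Arsj (8.08), Inhba (10.24), Angpt1 (11.28) and Wnt9a (8.91). The others were Ms4a7 on KO 3 (9.65), Foxd1 on KO 1 (11.25), Bmp2 on KO 2 (9.61) and Aplnr on KO 1 (11.82).

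Of the list medians, 4 were marked. Control 1 had a median of 11.85 for collagen chains, against 11.42 to 11.47 on the other controls, and of 11.70 for bone genes, against 8.26 to 8.77. The sex-linked list had a median of 4.15 on KO 1, against 9.67 to 10.09 on the other KO arrays, and of 3.93 on control 2, against 9.88 to 10.11 on the other controls.

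The effect of genotype differed between regions, by the interaction test, for 3 genes between the ends of the mandible and for 1 between the jaws. The proximal minus distal differences were 3.35 for Emx2, 1.96 for E330013P04Rik and 1.48 for Lhfpl3, and the mandible minus maxilla difference was 1.54 for Lhfpl3.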

How the results depend on the processing

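Of the 76 named calls, 11 held under all 23 alternatives (Arg1, Igdcc3, Ms4a7, Ghrh, Gbx2, Sned1, Apoe, Inhba, Wnt9a, Arid3a and Has2), 4 (Lin28a, Lhfpl3, Cxcl5 and Trem2) held under the 22 that tested them, being left out by the stricter filter, 61 were lost under 1 or more, and 0 changed direction. With the median over probe sets 14 lost their call (Trpm1, Shh, Runx1, Tmem100, Lepr, P4ha3, Col8a1, Acvr1, Spry4, Nfatc1, Nrp2, Lrrn3, Jag1 and E330013P04Rik), without the 2 high-Xist arrays 27, and with only the arrays of the groups compared 18. In place of the 172 calls of genotype, there were 486 (all 172 kept) with number 1 as a batch covariate, 3369 (1981 higher, 1388 lower) with array weights and 87 (32 higher, 55 lower) without the 2 high-Xist arrays. Without 2 arrays of other regions that stood apart (control distal mandible 3 and KO distal maxilla 1), an alternative chosen after seeing the data, there were 367. The 3' minus 5' difference, a reading of RNA quality, was 2.23 for Gapdh and 1.84 for actin on control distal mandible 3. On all other arrays it was -0.18 to 0.12 and -0.16 to 0.33. That array enters the shared spread and the interaction by end, whose 3 calls were kept without the 2 arrays. The counts without 1 array or 1 number ran from 33 (without number 3) to 198. In place of the 3 calls by end there were 51 with only the arrays of the groups compared, 1 with the replicate block, 13 with number 1 as a covariate, 6 with repeated quantile normalization, 8 with the stricter filter, 9 with a robust trend and 581 with array weights, and 0 to 6 with arrays left out. In place of the 1 call by jaw there were 0 with only the arrays compared, 3 with number 1 as a covariate, 3 with repeated normalization, 155 with array weights, 3 without the high-Xist arrays, and 0 to 3 with arrays left out; with the replicate block there was again 1, but it was Trpm1, and Lhfpl3 lost its call by jaw (adjusted p = 0.149). KO and control deviations from the group means, taken over genes, correlated at 0.30, -0.10, 0.33 and 0.23 in numbers 1, 2, 3 and 4, and in 3 of the 4 numbers the KO array correlated best with the control array of its own number, a hint from the data and not from the labels. With the replicate block the genotype calls numbered 192, of which 125 were shared with the 172, and Adgre1, Otor, Nxnl2, Col8a1, Acvr2b, Lmcd1, Col18a1, Fbln5, Unc5d and E330013P04Rik lost theirs (adjusted p = 0.0521 to 0.0916); the cause was not tested for any of these. Values near or under the filter level, as for Crh, Cxcl5, Lin28a and Lhfpl3, understate or blur differences.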
